A study of Mus musculus with 6 samples.

Results

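The loci of the 3 Tet genes were examined in DNA methylation profiles of mouse splenic naive B cells. A locus was the gene span in the RefSeq table of the genome build GRCm38.p6 with 2 kb added on each side, and its members were the CpG cytosines that fell inside it. Of 1799219 cytosines measured in any library, 572 lay in a Tet locus, with 157 in Tet1, 118 in Tet2 and 297 in Tet3. All 6 libraries measured 496 of them, 111 in Tet1, 111 in Tet2 and 274 in Tet3, of 1457048 in the genome. The libraries were made by enhanced reduced representation bisulfite sequencing (ERRBS), which reads size-selected, CpG-rich restriction fragments and so gives patches of cytosines rather than whole genes. The knockout (KO) group had 3 libraries with the genotype Tet2 knockout and the wild-type (WT) group had 3, and both groups were of the strain C57BL/6. The design of the knockout allele, any driver of it, the sorting of the cells and the origin of each library in 1 mouse or in pooled mice are not stated by the labels. The p-values therefore describe the scatter of these 6 libraries, which may be partly technical. The design text of the series speaks of germinal centre (GC) cells, but its title and every sample label say naive B cells, and that name is used here.

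The TET proteins are dioxygenases that use iron and 2-oxoglutarate to oxidise 5-methylcytosine to 5-hydroxymethylcytosine and on to formylcytosine and carboxylcytosine, which can be lost through replication or replaced by base excision repair. TET1 and TET3 carry a CXXC domain that binds CpG-rich DNA, whereas TET2 lacks one, and the neighbouring gene Cxxc4 encodes a related domain. In B lineage cells TET2 and TET3 act on regulatory DNA, and TET2 is often mutated in blood cancers. Bisulfite reads methylcytosine and hydroxymethylcytosine alike as C, so every methylation level below is the sum of both.

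The promoter sequences are shown first because an unmethylated group of measured cytosines reached into each of them. Each is the 250 bases upstream of the gene start tabled by RefSeq (GRCm38.p6), on the minus strand, 5′ to 3′, and capitals mark the CpGs at which at least 1 strand was measured in all 6 libraries.
Tet1, chr10:62887325-62887574, minus strand: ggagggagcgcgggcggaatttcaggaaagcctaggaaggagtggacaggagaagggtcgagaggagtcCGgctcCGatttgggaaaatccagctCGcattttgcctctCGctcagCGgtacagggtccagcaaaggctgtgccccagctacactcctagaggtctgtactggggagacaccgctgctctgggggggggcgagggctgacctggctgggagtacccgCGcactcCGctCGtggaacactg
Tet2, chr3:133544391-133544640, minus strand: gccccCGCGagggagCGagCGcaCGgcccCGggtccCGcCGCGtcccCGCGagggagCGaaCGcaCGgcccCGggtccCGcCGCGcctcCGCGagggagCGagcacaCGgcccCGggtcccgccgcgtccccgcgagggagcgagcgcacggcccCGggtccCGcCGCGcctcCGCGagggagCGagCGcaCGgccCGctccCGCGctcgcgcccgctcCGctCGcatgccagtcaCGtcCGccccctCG
Tet3, chr6:83441679-83441928, minus strand: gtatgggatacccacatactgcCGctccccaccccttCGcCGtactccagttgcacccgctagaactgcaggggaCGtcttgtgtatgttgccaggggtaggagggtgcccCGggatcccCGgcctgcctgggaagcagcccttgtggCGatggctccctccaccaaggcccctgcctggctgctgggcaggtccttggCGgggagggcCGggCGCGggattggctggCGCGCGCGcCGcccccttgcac

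The Tet2 promoter held 51 CpGs, of which 40 were measured, and 99.93% of the 27025 mouse promoters of that length in the table held fewer. The Tet1 promoter held 15 CpGs, with 8 measured, and the Tet3 promoter 17, with 16 measured. The median promoter held 6. The letters CCGG, which read the same on both strands and are the site of MspI, the enzyme commonly used for reduced representation libraries, occurred 1 time in the Tet1 promoter, 4 times in that of Tet2 and 3 times in that of Tet3, and at least 1 time in 46.8% of all promoters. Mean methylation of the promoter cytosines was 2.75% ± 1.58 in KO and 2.05% ± 0.484 in WT for Tet1 (SD, n = 3 libraries each, 8 cytosines). It was 0.103% ± 0.0469 and 0.0841% ± 0.00714 for Tet2 (53 cytosines) and 4.28% ± 1.21 and 4.17% ± 0.343 for Tet3 (22 cytosines). In each promoter the libraries of the genotypes overlapped, with two-sided exact permutation p-values of 0.6, 0.7 and 1 for Tet1, Tet2 and Tet3, where 3 against 3 libraries cannot go below 0.1.

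Across the genome, the libraries listed between 1551481 and 1626375 cytosines at a median of 92 to 110 reads, and no listed cytosine had fewer than 10. Median coverage of the shared cytosines was 97.5 reads in the Tet1 locus, 98 in the Tet2 locus and 110 in the Tet3 locus, and single values ran from 10 to 536 reads. Whether reads were counted by molecule is not stated, and depth limits counting error only. As a check of the labelled cell type, the window of 1 kb on each side of the tabled start was measured for 1 of 7 B cell marker genes and 1 of 6 T cell marker genes. That of Pax5, the factor that sets B cell identity, stood at 0.362% over the 6 libraries (5 cytosines). That of Zap70, a kinase of T cell receptor signalling, stood at 87.8% (3 cytosines). No such window of the myeloid and NK cell markers was measured. Measured gene-end windows not known to hold a start went both ways, at 1.47% in Cd79b and 88.6% in Blk for B cells. For T cells they stood at 0.533% in Cd4 and 95.4% in Lck. The check thus rests on few cytosines.

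The targeted gene was described first. Tet2 (gene 214133, chromosome 3, 133463677 to 133545136, minus strand, tabled start 133544390) had 6 cytosines that all 3 WT libraries listed and no KO library did. They lay within 109 bp, from 133486189 to 133486297, inside the gene and 58.1 kb downstream of the tabled start, with 3 cytosines read on each strand. Whether this stretch is exonic or intronic, and its sequence, were not analysed here. At the cytosine 133486196, the one with the lowest coverage, WT 1, WT 2 and WT 3 had 44, 70 and 28 reads. At 133486297, the one with the highest mean, they had 63, 45 and 61 reads. The WT libraries thus stood well above the minimum of 10 reads at each of the 6 positions, while each KO library had at most 9. That ceiling is between 16.0% and 19.0% of the mean WT coverage of the single cytosines, and it does not tell a fully absent sequence from a sparsely read one.

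Relative to each library's own depth, mean coverage of the stretch was 55.7%, 52.0% and 44.7% of the median cytosine in WT 1, WT 2 and WT 3, so the stretch was read less deeply than typical DNA in every WT library. Cytosines listed by all WT libraries and no KO library made up 0.0357% of all cytosines (643 of 1799219), and their median coverage was 15.3 reads, close to the minimum. With at least 28 reads in each WT library, which is the lowest value in the Tet2 stretch and was therefore chosen with its values known, 14 were left in the genome, and 6 of those were the Tet2 cytosines. A run of at least 6 such neighbouring cytosines occurred 2 times in the genome, and that in Tet2 was the 1 run with at least 28 reads throughout. The run length of 6 also equals the number of Tet2 cytosines. Both limits thus match the stretch itself, and these counts describe it without being independent evidence of its rarity. The opposite pattern was more frequent, with 1761 cytosines (0.0979%) listed by all KO libraries and no WT library, 282 of them with at least 28 reads and 9 runs at that depth.

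**Figure D1:**
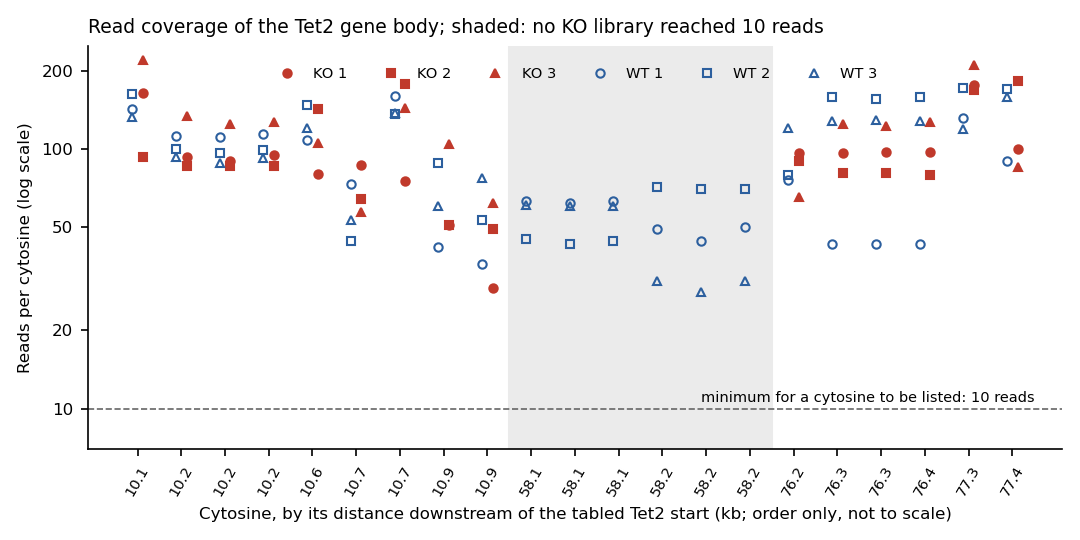
Reads per cytosine on a log scale for every cytosine of the Tet2 gene body that all libraries of at least 1 genotype listed, in order of distance downstream of the tabled start, with filled red symbols for KO 1 to 3 and open blue symbols for WT 1 to 3. The shaded 6 cytosines hold WT values from 28 to 71 reads and no KO value, and both genotypes are present on either side.

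In the WT libraries the stretch was methylated. Of all reads on its 6 cytosines, 331 of 331 carried C in WT 1, 327 of 343 in WT 2 and 268 of 271 in WT 3. The mean over cytosines was 100%, 95.8% and 99.2%, or 98.3% ± 2.24 (SD, n = 3). This is the level of the other Tet2 body cytosines below.

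The nearest cytosines with values in every library lay 18 kb toward the lower gene end and 47.2 kb toward the start, at either side of a span of 65.3 kb in which these 6 were the cytosines that a whole genotype listed. Toward the lower end, the group of 4 cytosines at 133468038 to 133468161 had mean coverage of 96.5, 82.8 and 110 reads in KO 1 to 3 and 51.3, 138 and 126 reads in WT 1 to 3. Toward the start, the 5 cytosines at 133533475 to 133533786 had 64.4, 97.0 and 94.4 reads in KO and 83.8, 93.6 and 89.6 reads in WT. The genotypes overlapped at both, and how far the missing coverage reached between these neighbours was not measured. Over the 111 shared cytosines of the locus, coverage was 108% ± 15.7 of the library median in KO and 134% ± 13.2 in WT, a log2 difference of -0.31 (SE 0.14, limma, adjusted p = 0.254, n = 3 each). No locus of the 16438 tested passed (0% called), and 10.9% were lower in KO at an unadjusted limma p under 0.05, as Tet2 was.

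The same search found no one-genotype cytosine in Tet3. In Tet1 it found 3 that were listed by KO alone, at 62819160, 62819187 and 62819200 within 41 bp. Their KO coverage was 13 to 20 reads, close to the minimum, and with at least 20 reads required none was left. A WT coverage of 9 reads would be 55.9% of the KO mean there, so this absence is a much weaker statement than that in Tet2.

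Along the loci, methylation took 1 of 2 levels almost everywhere. Of the 496 shared cytosines, 323 stood below 10% over the 6 libraries, 148 at 90% or above and 25 in between, or 5.04% against 13.2% of all cytosines of the genome. The Tet2 locus had none of the intermediate cytosines, Tet1 had 10 and Tet3 had 15. For region values, cytosines at most 200 bp apart were joined into CpG groups of at least 3, which gave 8 groups in Tet1, 4 in Tet2 and 15 in Tet3. Of these 27 groups, 5 were unmethylated, 19 were at 90% or above and 3 lay in between.

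**Figure D2:**
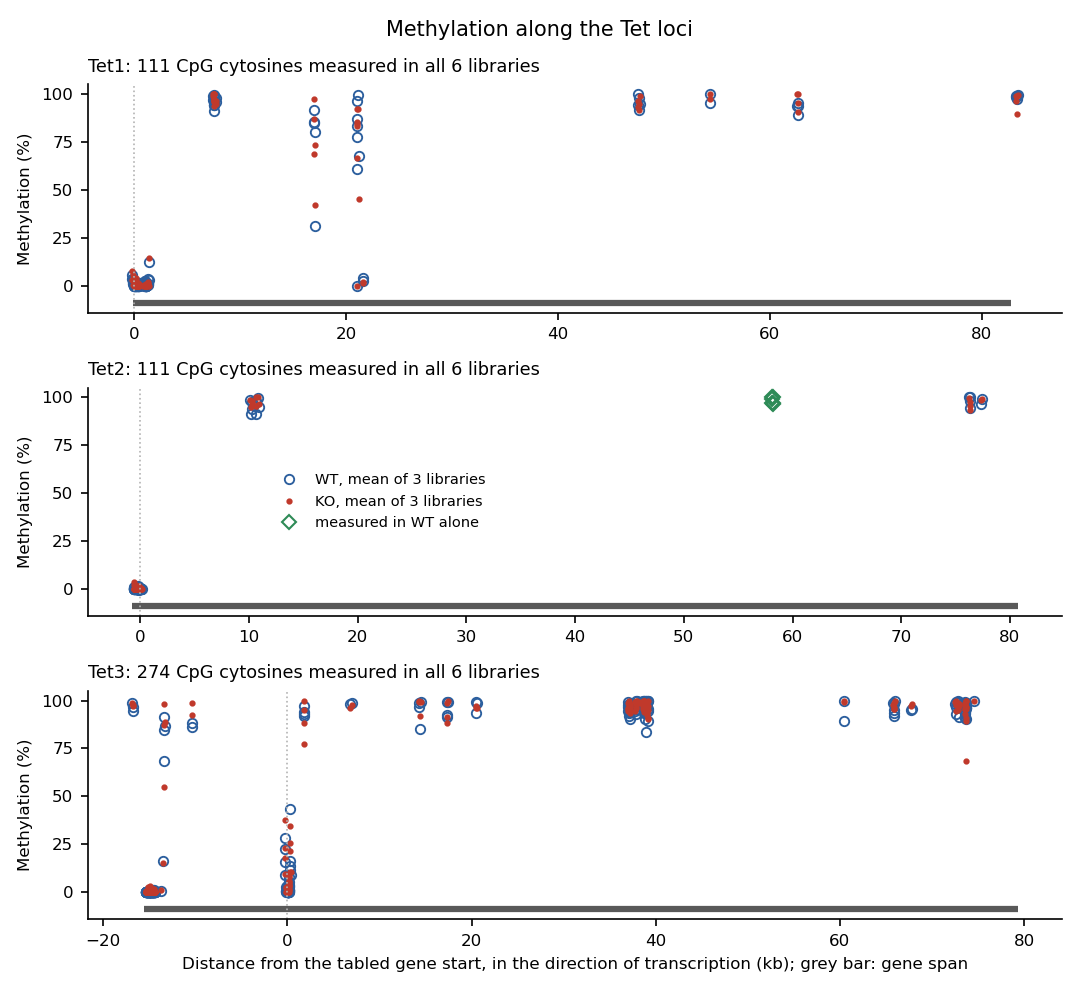
Methylation in percent of the 496 shared cytosines against distance from the tabled gene start in kb, with 1 panel per gene, open blue circles for the mean of the 3 WT libraries, red dots for the mean of the 3 KO libraries and green diamonds for the 6 Tet2 cytosines that WT alone listed. The starts sit near 0%, the gene bodies mostly above 90%, Tet1 has intermediate sites near 17 and 21 kb, and Tet3 has a further unmethylated region upstream of its tabled start.

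No feature of the Tet loci passed the test of KO against WT. The test was a quasi-binomial F test on the C and T reads with Benjamini-Hochberg adjustment over all features of a kind in the genome, and a call needed at least 10 percentage points between the pooled reads of the genotypes besides an adjusted p under 0.05. It called 0 of 335 tested single cytosines (background 0.000731% called), 0 of 27 groups (background 0.127%) and 0 of 28 tiles of 1 kb (background 0.112%). It called 0 of 4 gene-end windows (background 0.00569%), 0 of 3 gene interiors (background 0%) and 0 of 3 loci (background 0%). The lowest adjusted p was 0.514 for a cytosine, 0.744 for a group, 0.743 for a tile and 0.867 for a window. At an unadjusted p under 0.05 of the same test there were also 0 groups (background 5.75% higher and 1.44% lower), 0 tiles (5.74% and 1.46%) and 0 windows (4.95% and 0.876%). With calls this rare in the genome, no call among so few features says little about the Tet loci by itself, and the intervals below give the sizes that the data allow.

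Tet2 had 4 groups. The 96 cytosines around its start, from 133544243 to 133545012, were unmethylated, and their mean level was 0.0845%, 0.197% and 0.165% in KO 1 to 3 and 0.0650%, 0.125% and 0.0991% in WT 1 to 3. These means overlapped. The pooled levels, at 0.105%, 0.208% and 0.103% in KO and 0.101%, 0.0892% and 0.101% in WT, did not. How many of all groups lacked overlap in pooled levels was not counted. The pooled difference was 0.038 points with a 95% interval from -0.063 to 0.139 (adjusted p = 0.925). Of the 96 cytosines, 67 had the same value in both genotypes. The 3 groups in the gene body were methylated at 95.4% to 98.1% in WT and 96.5% to 97.5% in KO.
At the group at 133468038, on the lower side of the stretch that KO lacked, KO stood at 96.1%, 98.1% and 95.2% and WT at 98.8%, 98.2% and 97.3%, which overlapped, with a mean difference of -1.64 points. At the groups at 133533475 and 133534151, on the start side, KO was higher by 1.2 and 1.72 points, again with overlap. The 15 body cytosines together stood at 97.3% ± 0.835 in KO and 96.8% ± 0.492 in WT (exact permutation p = 0.4). The mean differences on the sides of the missing stretch thus had opposite signs, and the libraries of the genotypes overlapped on both sides. Among single cytosines, the smallest p belonged to 133468038 on the forward strand, at 97.6% ± 2.39 in KO against 100% ± 0 in WT (adjusted p = 0.585). The largest difference, at 133468084, was -4.88 points (adjusted p = 0.616).

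Tet1 (gene 52463, chromosome 10, 62804570 to 62887469, minus strand, tabled start 62887324) is best known from embryonic stem cells and germ cells. Its start was unmethylated over 2 groups. The 41 cytosines at 62886848 to 62887505 had a level of 0.970% ± 0.398 in KO against 0.849% ± 0.173 in WT, and the 26 at 62885904 to 62886465 at 0.822% ± 0.195 and 1.29% ± 0.472. Both pairs overlapped, and the 95% intervals of the pooled differences ran from -0.465 to 0.365 and from -0.785 to 0.372 points. The groups at 62803927, 62824634, 62839608 and 62879589 were methylated at 93.0% to 98.7% in WT and 95.1% to 97.5% in KO. The first of these lay beyond the lower gene end and the others inside the gene. At 62824634 the pooled levels were 96.0%, 95.8% and 98.3% in KO and 83.3%, 91.9% and 98.0% in WT, with overlap. Its pooled difference of 5.52 points was the largest of the 27 groups, with a 95% interval from -1.18 to 12.2 (adjusted p = 0.744). Leaving out 1 library moved this difference between 0.566 and 10.3 points.

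The remaining Tet1 groups held the intermediate cytosines. The 8 cytosines at 62866120 to 62866309, 21.2 kb downstream of the start, had mean levels of 71.8%, 68.9% and 65.4% in KO 1 to 3 and 75.1%, 69.1% and 70.5% in WT 1 to 3. The genotypes overlapped, and the pooled difference of -1.75 points had a 95% interval from -7.81 to 4.30 (adjusted p = 0.949). The 5 cytosines at 62870221 to 62870392, 17.1 kb downstream, had 64.5%, 79.0% and 78.0% in KO and 72.4%, 74.0% and 77.8% in WT. KO 1 was the lowest library in these means. In pooled reads WT 1, at 65.3%, lay below KO 1, at 66.2%. The pooled difference of 0.445 points had a 95% interval from -8.53 to 9.42, while the difference of the means was -0.906 points. These intervals are the widest of the unmethylated and intermediate groups of Tet1, and differences of several points in either direction remain within them.
Inside these groups neighbouring cytosines differed more from each other than the genotypes did. At 62866228 on the reverse strand KO stood at 92.5% ± 4.52 and WT at 99.4% ± 0.543, while 108 bp away at 62866120 on the forward strand KO stood at 45% ± 13.3 and WT at 67.8% ± 13.7.

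The cytosine 62866120 had the largest difference of pooled reads in the 3 loci, -24.6 points. Its KO levels were 60%, 34.3% and 40.8% and its WT levels 77.3%, 52.0% and 74.0%, from 22 to 67 reads per library. KO 1 lay above WT 2, so the genotypes overlapped (adjusted p = 0.577). In the neighbouring group, 62870345 had 68.9% ± 16.9 in KO against 85.5% ± 6.41 in WT (adjusted p = 0.587), and 62870221 in the opposite direction at 42.0% ± 7.86 and 31.3% ± 20.3 (adjusted p = 0.647). Of these cytosines none passed, and both directions occurred within 172 bp.

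At 1 CpG of Tet1 the strands differed by over 50 points. The forward cytosine 62866308 carried no C in any library, while its partner on the reverse strand, 62866309, stood at 100%, 57.8% and 92.5% in KO and 84.0%, 91.2% and 85.4% in WT. Of the CpGs with both strands measured, this was 1 of 19 in Tet1 that differed by over 50 points, with 0 of 25 in Tet2 and 0 of 49 in Tet3, against 1.92% of 269818 in the genome. Both genotypes showed it, and the cytosine added a constant 0% to the level of its group. In the same group, the CpG at 62866261 and 62866262 stood at 94.3% on the forward and 63.8% on the reverse strand over the 6 libraries, a difference of 30.6 points with the forward strand higher in each library.

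Tet3 (gene 194388, chromosome 6, 83362373 to 83457208, minus strand) is known for oxidising the paternal genome after fertilisation and is also expressed in lymphocytes. Its tabled start at 83441678 lay 15.5 kb inside the upper end of the gene span, and both places were unmethylated. The 109 cytosines at the upper end, from 83456064 to 83457052, had mean levels of 0.111%, 0.199% and 0.171% in KO 1 to 3 and 0.0945%, 0.0587% and 0.0875% in WT 1 to 3. In these means every KO library exceeded every WT library. With equal weight per cytosine it was the 1 group of 27 without overlap in either direction, where 8.48% of all groups lay higher and 3.38% lower. In pooled levels the Tet2 start group lacked overlap as well. The exact permutation p was 0.1, the smallest possible, the pooled difference was 0.070 points (95% interval -0.031 to 0.170) and the adjusted p was 0.812. At levels this close to 0% the difference is under 1 C read in 1000.

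The 55 cytosines around the tabled start, from 83441309 to 83441930, stood at 4.92%, 3.74% and 5.52% in KO and 3.81%, 4.24% and 4.39% in WT, which overlapped. Their level depended on the distance from the start. The 44 cytosines within 200 bp stood at 1.32% ± 0.585 in KO and 1.13% ± 0.267 in WT (exact permutation p = 0.7). The 4 farther upstream stood at 22.0% ± 6.63 and 18.9% ± 2.55 (exact permutation p = 0.6). The 7 farther downstream stood at 16.3% ± 0.691 and 14.7% ± 1.27 (exact permutation p = 0.2). Both edges thus rose above the centre in both genotypes, and the genotypes overlapped in all 3 parts. At the single cytosine 83441372 of the downstream edge KO stood at 27.1%, 16.7% and 32.7% and WT at 13.6%, 13.3% and 13.5%, without overlap, but it did not pass (adjusted p = 0.597) and was picked after its values were seen. Its partner on the other strand, 83441371, stood at 13.4%, 7.07% and 10.4% in KO. There WT stood at 10.5%, 13.7% and 11.4%, with overlap.

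**Figure D3:**
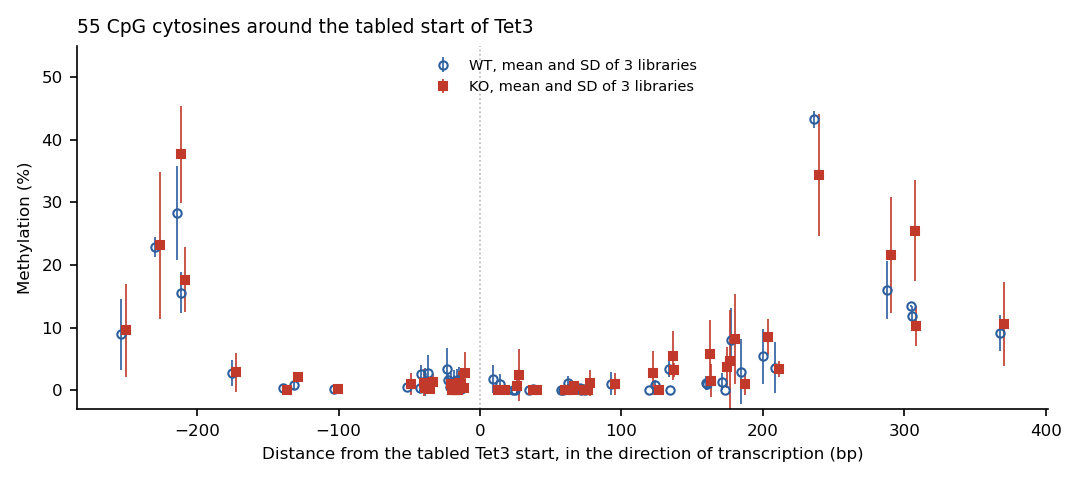
Methylation in percent (mean and SD of 3 libraries per genotype, red squares for KO and open blue circles for WT) of 55 cytosines against distance from the tabled Tet3 start in bp. Cytosines within 200 bp of the start stay near 0%, and those farther out reach up to 43.2% in WT and 37.6% in KO.

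A gradient also marked the border of the upper unmethylated region of Tet3. Across the 6 cytosines at 83455017 to 83455367, the level fell toward the upper end, from 88.7% ± 2.82 in KO and 86.9% ± 3.06 in WT at the first to 1.18% ± 1.24 and 0.60% ± 0.525 at the last. The steepest part lay between 83455061, at 55% ± 4.76 in KO and 68.7% ± 10.9 in WT, and 83455235, at 15.5% ± 0.717 and 16.3% ± 4.64. The group as a whole had 59.1%, 57.4% and 56.6% in KO and 56.1%, 58.3% and 59.8% in WT, and the genotypes overlapped at each of the 6 cytosines.

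The other 12 Tet3 groups were methylated at 94.1% to 97.2% in WT and 90.1% to 97.9% in KO. The group nearest the start, at 83439852 to 83439896, was the lowest in KO, with 87.2%, 96.7% and 86.6% against 91.7%, 95.1% and 95.5% in WT. It overlapped, and the 95% interval of its pooled difference ran from -10.1 to 5.10 points. Its coverage was 29.1% ± 5.12 of the library median in KO and 42.3% ± 4.79 in WT, without overlap. The single cytosines with the smallest p were highly methylated in KO. At 83369058 on the forward strand KO stood at 100%, 100% and 99.1% and WT at 94.1%, 92.1% and 92.3%, without overlap and with 152 to 240 reads per library. Its unadjusted p of 2.88e-04 was the smallest in the 3 loci, and its adjusted p was 0.514. At 83402974 KO stood at 99.7% ± 0.511 and WT at 93.6% ± 5.66, with overlap, and at 83451994 KO at 98.8% ± 2.06 and WT at 86.1% ± 7.44, without (adjusted p = 0.551 for both). The partner of 83402974 on the other strand had 91.1%, 93.8% and 97.0% in KO and 89.7%, 96.2% and 96.5% in WT.
The largest loss in KO had little depth. At 83368003 on the reverse strand KO stood at 90.6%, 50% and 64.7% from 32, 10 and 17 reads, and WT at 100%, 96.2% and 100% from 21, 26 and 38 reads (adjusted p = 0.554). At 83439892 KO stood at 77.5% ± 10.1 and WT at 94.1% ± 3.19, and KO 1 had 12 reads (adjusted p = 0.584). Both lacked overlap, and neither is left at a minimum of 20 reads. Their partners on the other strand did overlap. That of 83368003 had 72.7%, 100% and 100% in KO and 100%, 94.6% and 93.8% in WT. That of 83439892 had 90.3%, 100% and 74.1% in KO and 85.7%, 90.4% and 100% in WT.

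**Figure D4:**
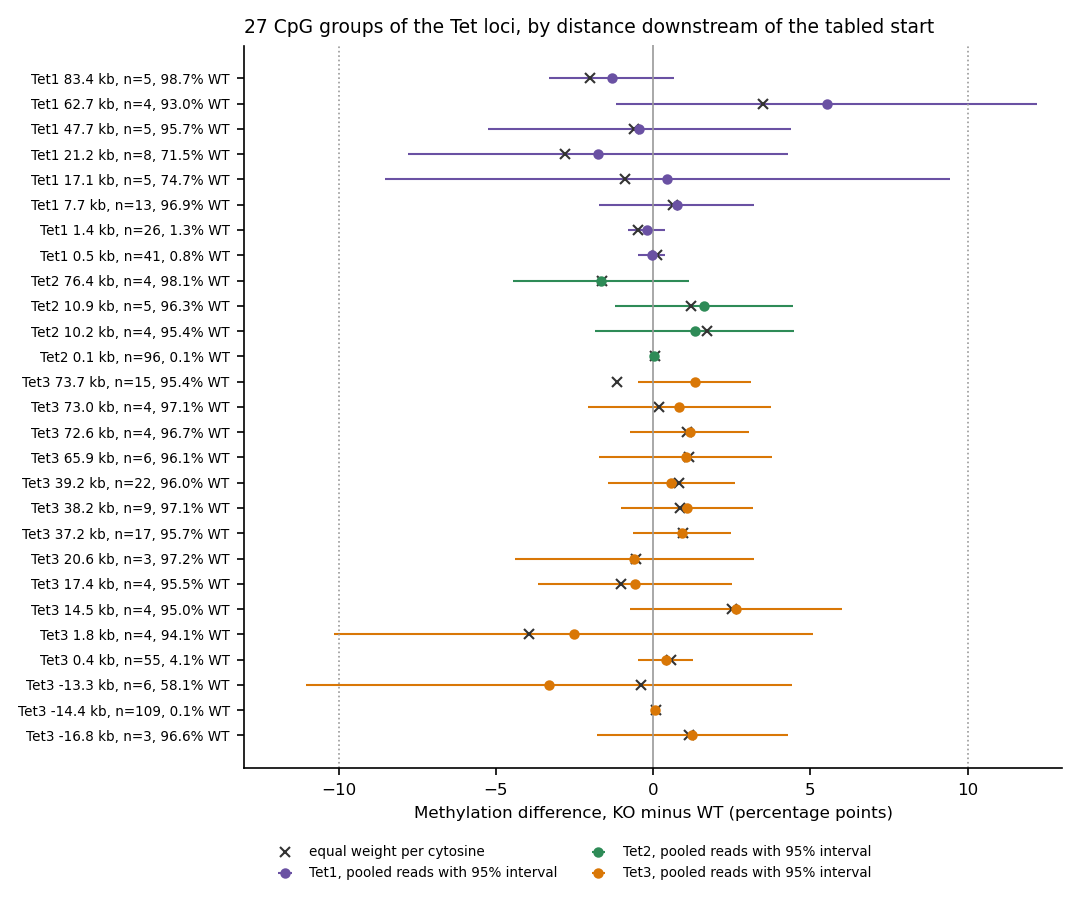
Difference of methylation, KO minus WT in percentage points, for each of the 27 CpG groups, labelled by gene, distance of the lower end downstream of the tabled start, number of cytosines and WT level, with filled points for pooled reads with their 95% interval and crosses for equal weight per cytosine. All intervals include 0, and those of the unmethylated groups are the narrowest.

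Over single cytosines, 19 of the 335 tested were higher and 15 lower in KO at an unadjusted p under 0.05, or 10.1% together, where the genome had 5.31% higher and 3.17% lower. The library values did not overlap at 11 cytosines higher in KO and 7 lower of 496, where the genome had 2.97% and 2.25%. Neither count stands far from its background. By level, the 148 cytosines of 90% or above stood at 96.9% ± 0.347 in KO and 96.2% ± 0.254 in WT, without overlap (exact permutation p = 0.1), and the genome had 95.9% ± 0.112 and 95.6% ± 0.105, also without overlap. Tet3 supplied most of that class. Its 101 cytosines had 97.1%, 96.4% and 97.5% in KO and 95.8%, 95.9% and 96.2% in WT, all KO above all WT by a mean of 1.003 points. Tet1 and Tet2 overlapped in this class.

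The 25 intermediate cytosines stood at 56.5%, 55.3% and 55.7% in KO and 57.5%, 57.1% and 58.9% in WT, all KO below all WT, with a difference of -1.96 points (exact permutation p = 0.1). In the genome this class went the other way, at 60.3% ± 0.456 in KO and 58.5% ± 1.08 in WT. The median difference of the 25 was 1.78 points higher in KO, with 15 higher and 10 lower, so their mean and median had opposite signs. With at least 20 reads per cytosine the mean difference was 0.260 points, which reversed its sign. The lower mean of this class in KO therefore rested on cytosines with fewer than 20 reads in at least 1 library.

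Methylation of whole loci depended on how cytosines were weighted. Over pooled reads, the Tet1 interior, which is the gene span without 1 kb at each end, stood at 33.9%, 38.3% and 35.7% in KO 1 to 3 and 28.5%, 25.2% and 31.7% in WT 1 to 3. The lowest KO library exceeded the highest WT library, which held for 18.4% of all interiors. The difference was 7.48 points with a 95% interval from 2.79 to 12.2, and the adjusted p was 0.172. At an unadjusted p under 0.05 this interior was higher in KO, as were 15.1% of all interiors. With equal weight per cytosine the same 65 cytosines stood at 50.3% ± 0.585 in KO and 50.6% ± 0.205 in WT, with overlap (exact permutation p = 0.7).
The loci behaved alike. Pooled reads gave 4.43 points for Tet1, 2.90 for Tet2 and 2.94 for Tet3, all higher in KO (adjusted p = 0.193, 0.268 and 0.463), while the library means with equal weight per cytosine differed by -0.232, 0.119 and 0.345 points. At an unadjusted p under 0.05, 1 of the 3 loci, that of Tet1, was higher in KO, where 21.9% of all loci were, and it was the 1 locus of the 3 without overlap, as were 24.9% of all loci.

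The share of reads that fell on methylated sites moved with the pooled values. In the Tet1 interior, cytosines of 10% or more held 42.5% ± 2.02 of KO reads and 33.9% ± 3.45 of WT reads, without overlap, and in the whole Tet1 locus 26.2% ± 2.38 and 21.2% ± 2.98, also without overlap. In the genome the shares were 36.0% ± 1.60 and 30.8% ± 2.24, likewise without overlap, so the shift was not particular to Tet1. How many other loci or interiors lacked overlap in this share was not counted. Within Tet1, coverage relative to the library median was higher in all KO libraries at 3 body groups. It was 69.8% ± 20.6 in KO and 40.1% ± 15.2 in WT at 62824634, 91.1% ± 28.7 and 39.8% ± 8.12 at 62839608, and 89.5% ± 14.2 and 55.3% ± 22.9 at 62866120. These groups were methylated at 68.7% to 96.4% in KO. Of the 27 groups, these 3 had higher relative coverage in KO without overlap and 2, both in Tet3, lower, where 17.4% of all groups were higher and 6.86% lower. The part of single groups in the pooled values was not tested. The shares of Tet2 and Tet3 loci overlapped between genotypes.

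**Figure D5:**
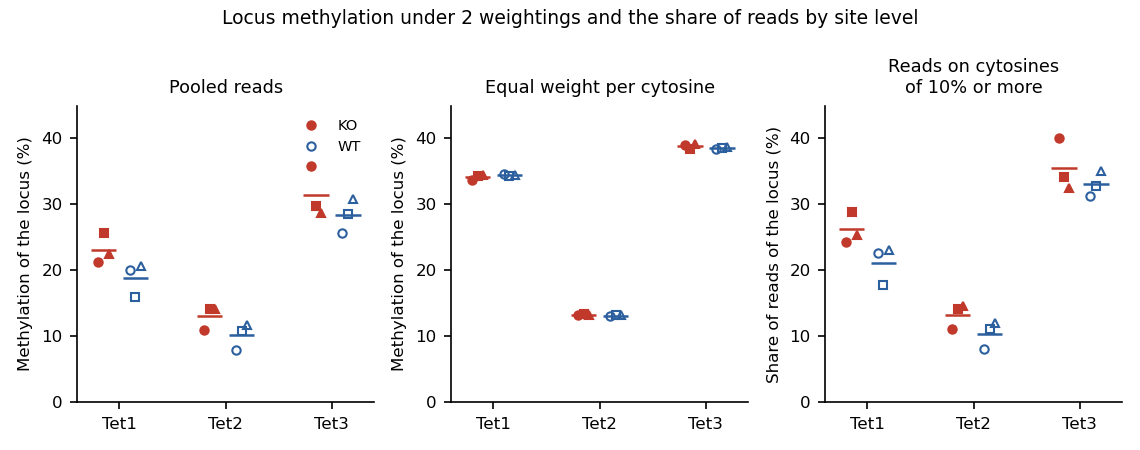
Methylation of each Tet locus in percent by library over pooled reads (left) and with equal weight per cytosine (middle), and the share of the locus's reads on cytosines of 10% or more (right), with filled red symbols for KO, open blue symbols for WT and bars for the mean of 3 libraries. The pooled values and the read shares are higher in KO on average, and the equally weighted values lie within 1 point of each other in each gene.

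No locus among the other genes of oxidative demethylation passed the test, and their differences varied in size. A list of 33 genes, chosen for what they do, held suppliers of the TET substrate, TET partners, enzymes that excise and repair oxidised cytosine, readers of hydroxymethylcytosine, and methyltransferases with their cofactors. Of its 33 loci, 0 passed in either direction, as of its 34 gene-end windows and 25 interiors. The median difference of the loci was 1.23 points of pooled reads, beside 1.001 for all genes, and 0.12 points when the test was refitted with equal weights, beside 0.154. With pooled reads 29 loci were higher and 4 lower, where 81.0% of all loci were higher, and with equal weights 23 and 10, where 70.5% were higher. At an unadjusted p under 0.05, 8 were higher and 0 lower, where 21.9% and 0.189% of all loci were.
The smallest p-values belonged to Wt1, Tdg and Ebf1. Wt1 encodes a DNA-binding factor that recruits TET2, and its pooled locus level was 4.92 points higher in KO (adjusted p = 0.130). With equal weights it stood at 18.8% ± 0.144 in KO and 17.7% ± 0.448 in WT. Tdg encodes the glycosylase that removes formylcytosine and carboxylcytosine, and its pooled level was 3.95 points higher in KO (adjusted p = 0.132), against equally weighted levels of 19.4% ± 0.229 and 18.8% ± 0.186. Ebf1 encodes a B cell lineage factor, and its pooled level was 10.3 points higher in KO (adjusted p = 0.134), against equally weighted levels of 48.4% ± 0.751 and 46.7% ± 1.38. In all 3 the equally weighted KO levels exceeded the WT levels without overlap, as in 14.4% of all loci. The largest pooled differences of the list in each direction, picked after their values were seen, were those of D2hgdh and Wdr76. D2hgdh encodes the dehydrogenase that clears D-2-hydroxyglutarate, an inhibitor of the TET enzymes, and the pooled level of its 24 cytosines was 11.4 points higher in KO (adjusted p = 0.135). With equal weights it stood at 43.5% ± 0.624 in KO and 38.5% ± 0.789 in WT, without overlap. Wdr76, listed among the readers of hydroxymethylcytosine, had a pooled difference of -9.65 points over 12 cytosines (adjusted p = 0.243). With equal weights it stood at 60.7% ± 3.38 in KO and 67.4% ± 1.82 in WT, lower in KO without overlap, as in 2.14% of all loci. Cxxc4, the neighbour of Tet2, stood at 3.92% ± 0.192 and 4.15% ± 0.379, with overlap.

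Loci with library levels most like those of the Tet genes were found by the root mean square difference over the 6 libraries, among 13726 loci with at least 20 cytosines. For Tet1 they were Exo1, Ppp1r14a and Zfp335, within 0.226 to 0.268 points. For Tet2 they were Cep120, Pkmyt1 and Nlk, within 0.132 to 0.141 points, and for Tet3 they were Kmt2d, Nelfb and Limk2, within 0.179 to 0.292 points. A likeness of under 1 point was common, with 190 loci for Tet1, 474 for Tet2 and 166 for Tet3.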

How the data were processed

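The sources are the labels, the files and the RefSeq tables of GRCm38.p6. Reads were processed with Bismark on GRCm38, per the submitters' processing notes; for its version and for trimming or deduplication, the sources used here say nothing. The coverage the authors deposited is a raw read count per CpG cytosine and strand, from 10 upward. Methylation was deposited as the percent of reads with C and with T, per the file headers, from which read counts were recovered (100% whole within rounding). Of 249085 cytosines within the tabled promoter sequences, 249085 fell on a CpG, so both use the same build.

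C and T reads were tested per cytosine, CpG group, 1 kb tile, gene-end window (1 kb on each side), interior and locus, over cytosines with 10 or more reads in every library. The quasi-binomial test estimated 1 level per genotype, with the overdispersion (4 residual degrees of freedom) moderated by limma 3.58.1 in R 4.3.3 and held at 1 or above; features with only C or only T were not tested. Regions needed 3 cytosines, interiors and loci 5. Levels are means over cytosines unless called pooled, ± SD over 3 libraries; intervals come from the test's standard error. Coverage was tested with limma on log2 of locus coverage over the library median. The test was checked on simulated data. Python 3.11.15 with pandas 2.3.3 was used.

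The members, the gene lists and the tests were chosen with earlier results of these data known. Named were every CpG group of the 3 loci, every cytosine of Tet2 absent from 1 genotype, per locus the cytosines with the 3 smallest p and the 3 largest differences, the 3 genes of the list with the smallest locus p, and the 3 loci most alike; others are said to be chosen after their values were seen or illustrate a group. Alternatives are given at the end.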

Additional observations from a re-analysis of the deposited data

How the results depend on the processing

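Each result was recomputed with a coverage minimum of 20, an upper limit on coverage, equal weights, no moderation, limma on log2 ratios, the replicate number as a block, robust moderation (chosen after seeing the data) and each library left out. No Tet feature was called under any of them, and the 6 WT-only cytosines of Tet2 were found without any 1 library, with 20 reads required in WT and when missing from 2 of 3 KO libraries. Over the genome, no moderation, limma on log2 ratios and the replicate block each called 0 cytosines, groups, tiles and windows; the block called 14 loci by coverage. Leaving out 1 library gave 0 to 32 cytosines, 62 to 131 groups, 52 to 119 tiles, 0 to 1 windows, 0 to 79 interiors, 0 to 228 loci and 0 to 610 loci by coverage, each of the last 3 highest without WT 3.

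Same-numbered libraries correlated at 0.041, 0.0069 and 0.0033 over 29836 intermediate groups, so the numbers were not taken as pairs.

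Equal weights per cytosine in the refitted test, which still weights each library by its coverage and so differs from the library means of the report, turned the Tet1 interior (-0.302), the Tet1 locus (-0.206), the groups at 62870221 (-1.14), 62886848 (0.151) and 83367969 (-1.01) and the upper window of Tet1 (0.151); the medians of the list became 0.421 for interiors and 0.12 for loci. The upper limit turned the group at 62886848 and that window (0.033 each).

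The coverage minimum of 20 turned the 25 intermediate cytosines (0.260). Leaving out 1 library turned the sign of small differences, whose ranges were -2.48 to 1.90 at the group at 62839608, -3.30 to 4.73 at 62870221, -0.573 to 1.56 at 62879589, -0.237 to 0.070 at 62886848 and in the upper Tet1 window, -0.131 to 1.74 at 83368720, -0.154 to 1.67 at 83402509, -1.32 to 0.349 at 83421079, -1.36 to 0.155 at 83424253, -5.61 to 0.599 at 83439852, -0.214 to 23.6 at the cytosine 62870221 and -0.106 to 0.171 for log2 coverage of Tet1. KO-only cytosines of Tet1 became 0 at 20 reads, 7 when missing from 2 of 3 libraries and 3 to 6 without 1 library; in Tet3 KO-only cytosines became 3 and 0 to 3, and WT-only cytosines 0 to 1. The cause of these changes was not tested.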

Other observations

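The Tet2 promoter was the most CpG-rich of the 3 and also the least methylated. Of its 53 measured cytosines, 38 carried no C in any of the 6 libraries, from 18 to 402 reads per library, and the highest single value was 5.45%. The Tet1 promoter had 1 such cytosine of 8 and a highest value of 19.2%, and the Tet3 promoter had 0 of 22 and a highest value of 45.8%.

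The libraries differed in how many Tet1 cytosines they listed. KO 1, KO 2 and KO 3 listed 137, 138 and 139, and WT 1, WT 2 and WT 3 listed 113, 120 and 131. How many other loci separate by genotype in this way was not counted, so the separation cannot be called particular to Tet1. For Tet2 the counts were 111, 111 and 112 in KO and 117 in each WT library, and for Tet3 they were 281, 283 and 280 in KO and 292, 277 and 284 in WT.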
